A study of Mus musculus with 12 samples.

Results

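The genes described here encode nuclear subunits of respiratory complex I, the NADH:ubiquinone oxidoreductase of the mitochondrial inner membrane. They were chosen by symbol, as the protein-coding rows of the count table whose names begin with Ndufa, Ndufb, Ndufc, Ndufs, or Ndufv followed by a digit, which leaves out the Ndufaf assembly factors. In all, 41 of the 55536 rows matched these symbols and 37 of the 41 are protein-coding. Of the 37, 36 had enough reads for a test, and Ndufa4l2 did not. The symbol rule includes Ndufa4, whose protein is found with complex IV, and omits Ndufab1. The B1 subunit gene, Ndufb1-ps, matched the symbols and was left out because it is annotated as a lncRNA, not as protein-coding. Ndufab1 and the B1 gene are described separately.

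Complex I takes electrons from NADH, passes them over a flavin and a chain of iron-sulfur clusters to ubiquinone, and couples this transfer to proton pumping. Its N module binds NADH, its Q module reduces ubiquinone, and its membrane arm is built in parts around subunits encoded by the mitochondrial genome. In skeletal muscle the complex feeds oxidative phosphorylation, which slow fibers use more than fast glycolytic fibers.

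RNA-seq was performed on C2C12GFP cells, a green fluorescent derivative of the mouse C2C12 myoblast line that fuses into myotubes after serum withdrawal. Cells on uncoated plates (control) were compared with cells on 3 coatings, namely Collagen I, fibronectin, and Geltrex. Geltrex is a commercial basement membrane extract rich in laminin and was used diluted. Each of the 4 groups held 3 samples, all from this GFP line and, per the methods, in the same low-serum differentiation medium. The design addresses how the coating affects the fiber type of the myotubes formed, and the day of RNA collection was not given in the sources used here.

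The libraries held 22520404 to 27351766 counted reads. The labels do not state that the samples of a group came from separate cultures, so the p-values below measure the spread between these samples, which may be technical. Collagen I replicate 3 stood apart, with 11.5% of its counts in mitochondrially encoded genes against 4.56% to 8.28% in the other 11 samples. The skeletal muscle label was checked with 10 myotube genes such as Ckm, Acta1, and Myh3, which summed to between 8187 and 9060 CPM in the control samples (CPM, counts scaled by TMM to a common library size). The adipocyte and endothelial marker lists summed to at most 0.431 CPM in any sample, and the macrophage list to between 0.624 and 1.59 CPM, with its defining gene Adgre1 at 0 reads in every library. Fibroblast markers were not near 0, and their sums are given below with the other marker lists.

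Promoters are shown for the members that share a short element, since the members are compared below as genes that moved together. RefSeq promoter windows of GRCm38.p6, from 250 bases before to 50 bases after the start, matched 32 of the 37 members with 34 windows. The GC of these windows had a median of 59%, against 52.67% over all 32851 windows, and the shares below were not adjusted for this. Both strands were searched for 1 fixed core each of 4 factors known to bind promoters of respiratory chain genes. The YY1 core AAGATGGCG was present in 5 of the 34 windows (14.7%), against 1.40% of all 32851 windows. In all 5 it lay after the start on the gene's own strand, and its ATG was the annotated start codon. These 5 stretches of 30 bases lie at chr6:126849096-126849125 (Ndufa9, minus strand), chr3:51408914-51408943 (Ndufc1, minus strand), chr13:114388045-114388074 (Ndufs4, minus strand), chr13:73328433-73328462 (Ndufs6, minus strand), and chr10:80249463-80249492 (Ndufs7, plus strand). Each is printed 5′ to 3′ with the YY1 core in capitals.
Ndufa9: attgtgggagAAGATGGCGgccgccgtccg
Ndufc1: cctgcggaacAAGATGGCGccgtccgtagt
Ndufs4: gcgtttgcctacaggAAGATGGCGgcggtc
Ndufs6: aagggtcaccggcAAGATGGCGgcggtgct
Ndufs7: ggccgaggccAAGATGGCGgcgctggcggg

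The NRF-1 core GCGCATGCG occurred in 2 of the 34 member windows (5.88%) and in 1.75% of all windows. With 1 more C it forms a palindrome, so that the Ndufa11 match was counted on both strands. Both members are shown with the core, or its reverse complement, in capitals: Ndufa11 from chr17:56717692-56717721 (plus strand) and Ndufa8 from chr2:36049328-36049357 (minus strand).
Ndufa11: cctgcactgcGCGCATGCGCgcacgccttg
Ndufa8: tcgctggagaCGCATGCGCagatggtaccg
The ETS core CCGGAAG, read by GABP (NRF-2), was found in 4 windows (11.8%), those of Ndufb6, Ndufb7, Ndufs3, and Ndufs8, and in 8.86% of all windows. The 250 bases before the start of Ndufs3, chr2:90904722-90904971 on the minus strand, are shown because Ndufs3 had one of the largest differences between coatings. The ETS core is in capitals.
Ndufs3: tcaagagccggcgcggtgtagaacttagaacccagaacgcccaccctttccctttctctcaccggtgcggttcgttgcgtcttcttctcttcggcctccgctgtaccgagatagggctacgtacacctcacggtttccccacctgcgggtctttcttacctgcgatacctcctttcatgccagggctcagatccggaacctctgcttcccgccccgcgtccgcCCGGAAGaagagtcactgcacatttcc
The estrogen-related receptor core TCAAGGTCA was in 0 of the 34 windows and in 0.423% of all windows. A match or its absence describes these letters in this window and does not locate a binding event.

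Across the 4 groups, the complex I subunit genes were highest on Collagen I and lowest on fibronectin. The 37 members together took up 1859 ± 62.5 CPM in control (SD, n = 3), 2051 ± 187 on Collagen I, 1454 ± 98.9 on fibronectin, and 1632 ± 41.4 on Geltrex. By sample, their sum was 1922, 1797, and 1858 CPM in control, 1987, 1905, and 2262 on Collagen I, 1414, 1382, and 1567 on fibronectin, and 1654, 1657, and 1584 on Geltrex. Every fibronectin and Geltrex sample was below every control and Collagen I sample, whereas the Collagen I range overlapped that of control and fibronectin replicate 3 lay close to Geltrex replicate 3. In bulk RNA, fewer cells with high expression and less RNA per cell cannot be told apart. By mean CPM, 33 of the 36 tested members had their highest group mean on Collagen I and 3 in control, and 32 had their lowest on fibronectin and 4 on Geltrex. Collagen I replicate 3 was the highest single sample for 30 members, and fibronectin replicates 1 and 2 were the lowest for 12 and 21.

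**Figure D1:**
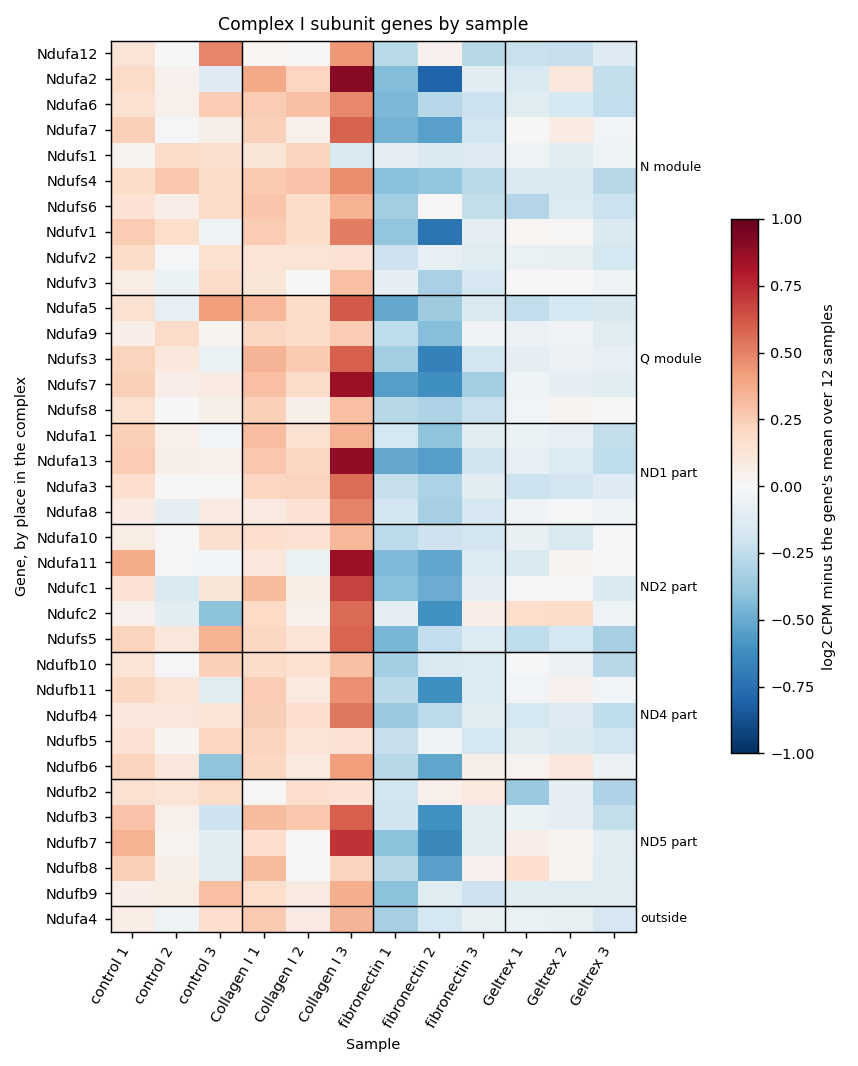
Heat map of 35 tested complex I subunit genes (rows, grouped by place in the complex) in the 12 samples (columns), with color giving log2 CPM minus the gene's mean over all samples. Collagen I replicate 3 is the most red column, fibronectin replicates 1 and 2 are the most blue, and the 3 Geltrex samples are pale blue for most genes.

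A member was called changed at an adjusted p of at most 0.05 in edgeR's quasi-likelihood test, the adjustment being that of Benjamini and Hochberg over the 14499 genes tested. On fibronectin, 33 of the 36 members were lower than on Collagen I and 0 were higher, while 22.1% of all genes tested were lower and 22.9% higher. The median log2 fold change of the members was -0.49, against -0.02 over all genes, and all 36 values were negative, from -0.97 to -0.12. In 31 of the 36 members, every fibronectin sample was below every Collagen I sample, which held for 25.9% of all genes. Compared with control, 26 members were lower on fibronectin and 0 were higher, against 14.7% of all genes lower and 17.1% higher. Here the members' median was -0.34, and 29 members did not overlap in this direction, against 20.3% of all genes.

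Geltrex gave smaller differences in the same direction. Compared with Collagen I, 25 members were lower on Geltrex and 0 were higher, while 18.2% of all genes were lower and 19% higher, and the members' median log2 fold change was -0.35. All 3 Geltrex samples lay below all 3 Collagen I samples for 28 members and for 27.1% of all genes. Compared with control, 11 members were lower on Geltrex and 0 higher, against 16.6% and 16.4% of all genes, with a median of -0.18 over the members. For 19 members the Geltrex samples were all below the control samples, against 25.1% of all genes. With the 3 Geltrex samples, which varied little among themselves, summed into 1, 3 members were lower than on Collagen I and 0 lower than in control, beside 5.57% and 5.97% of all genes. Leaving out a Geltrex sample left 4 or 5 members lower than in control. The share of all genes lower in those fits is not given here, so these counts cannot be set against it. The Geltrex and fibronectin comparisons with one base group share its 3 samples and are not independent of each other.

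No member was called between Collagen I and control at this threshold. The count of 0 calls stood beside 0.2% of all genes called higher and 0.917% called lower. At an unadjusted p under 0.05 the edgeR test gave 11 members, beside 2143 of all 14499 genes, and 33 of the 36 log2 fold changes were positive, with a median of 0.18 and a highest value of 0.49. For 6 members all Collagen I samples were above all control samples, as for 8.18% of all genes. Without Collagen I replicate 3 the median was 0.08. No member in any of the 6 comparisons reached a fold change of 2 together with the adjusted p threshold.

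The N module, which oxidizes NADH, had 9 of its 10 tested members lower on fibronectin than in control and 8 lower than on Collagen I. On Geltrex, 5 of the 10 were lower than in control and 7 lower than on Collagen I. Ndufv1, the core subunit that holds the flavin and the NADH site, was at 109, 103, and 87.7 CPM in control, 109, 103, and 130 on Collagen I, 69.5, 55.0, and 85.3 on fibronectin, and 92.5, 92.1, and 82.3 on Geltrex. Each fibronectin sample was below each control and Collagen I sample, although fibronectin replicate 3 was near the lowest control sample. Ndufv1 fell 1.63-fold on fibronectin relative to Collagen I (log2 fold change -0.70 ± 0.13 SE, edgeR adjusted p = 0.000661) and 1.43-fold relative to control (edgeR adjusted p = 0.00865). On Geltrex it was lower than on Collagen I at -0.36 ± 0.13 (edgeR adjusted p = 0.046), and its value over control was -0.17 ± 0.13 (edgeR adjusted p = 0.374). Without Collagen I replicate 3 the Geltrex value of Ndufv1 over Collagen I was -0.25 and did not pass (edgeR adjusted p = 0.18).

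Ndufv2, which carries an iron-sulfur cluster next to the flavin, was at 102, 88.8, and 99.4 CPM in control, 98.4, 97.8, and 98.9 on Collagen I, 77.7, 84.4, and 82.3 on fibronectin, and 85.6, 84.9, and 79.4 on Geltrex. Both coatings lay wholly below control and Collagen I, at narrower distances than for Ndufv1. Ndufv2 was called lower in all 4 comparisons of fibronectin and Geltrex with control and Collagen I, by log2 fold changes from -0.27 to -0.21 (SE 0.07 each, edgeR adjusted p from 0.00765 to 0.0364). Ndufs1, the largest of these core subunits, with further N module clusters, was at 142, 158, and 155 CPM in control, 150, 162, and 125 on Collagen I, 130, 126, and 126 on fibronectin, and 134, 128, and 134 on Geltrex. Here Collagen I replicate 3 was the lowest of the 12 samples, although it was the highest for 30 of the 36 members, and the Collagen I and fibronectin ranges overlapped. Ndufs1 was called lower on fibronectin than in control (-0.25 ± 0.09, edgeR adjusted p = 0.0401) and not relative to Collagen I (-0.19 ± 0.09, edgeR adjusted p = 0.0847). Its Geltrex values did not pass over control (-0.20 ± 0.09, edgeR adjusted p = 0.0946) or over Collagen I (-0.14 ± 0.09, edgeR adjusted p = 0.215). Without Collagen I replicate 3, Ndufs1 passed over Collagen I on fibronectin (-0.30, edgeR adjusted p = 0.00551) and on Geltrex (-0.24, edgeR adjusted p = 0.0207). With the GC and length offsets described below, it was lower in all 4 comparisons, from -0.44 to -0.31 (edgeR adjusted p of at most 0.000867).

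Among the accessory subunits of the N module, Ndufs4 and Ndufa6 had the smallest adjusted p-values of all members. Ndufs4, whose loss in mice gives a model of Leigh syndrome, was at 54.6, 58.1, and 54.5 CPM in control, 57.7, 58.5, and 66.4 on Collagen I, 35.95, 36.8, and 40.0 on fibronectin, and 43.5, 43.5, and 39.6 on Geltrex. The fibronectin and Geltrex samples were wholly below the other 2 groups, and fibronectin and Geltrex overlapped by a narrow margin. Relative to Collagen I, the log2 fold change of Ndufs4 was -0.69 ± 0.08 on fibronectin (edgeR adjusted p = 7.95e-06) and -0.53 ± 0.08 on Geltrex (edgeR adjusted p = 0.000118). Ndufa6, an LYR-motif subunit that binds the acyl carrier protein, was at 50.7, 47.2, and 54.3 CPM in control, 54.3, 55.6, and 63.5 on Collagen I, 33.3, 37.3, and 39.1 on fibronectin, and 41.8, 40.3, and 38.3 on Geltrex. It showed the same order of groups as Ndufs4 and was 1.58-fold lower on fibronectin than on Collagen I (edgeR adjusted p = 3.31e-05). Ndufs6, a zinc-binding subunit, was also lower in all 4 of these comparisons, from -0.32 to -0.49, and gave no call between Geltrex and fibronectin (-0.03 ± 0.10, edgeR adjusted p = 0.868). With the GC and length offsets described below, its fibronectin values were -0.14 over control and -0.17 over Collagen I. Neither passed (edgeR adjusted p = 0.276 and 0.158), whereas both Geltrex values of Ndufs6 did.

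Ndufa2, an accessory subunit with a thioredoxin-like fold, showed how far a single sample could move a value. It was at 16.1, 14.6, and 13.0 CPM in control, 18.3, 16.4, and 26.6 on Collagen I, 10.5, 8.12, and 13.1 on fibronectin, and 12.7, 15.3, and 11.99 on Geltrex. Collagen I replicate 3 was the highest and fibronectin replicate 2 the lowest, and fibronectin replicate 3 overlapped control. Ndufa2 was 1.93-fold lower on fibronectin than on Collagen I (-0.95 ± 0.18, edgeR adjusted p = 0.000796) and was not called relative to control (-0.46 ± 0.19, edgeR adjusted p = 0.0722). On Geltrex it was lower than on Collagen I (-0.61 ± 0.18, edgeR adjusted p = 0.0155), which did not pass without Collagen I replicate 3 (-0.38, edgeR adjusted p = 0.0944). Ndufa12, which anchors the N module at a late step of assembly, was lower on Geltrex than in control (-0.42 ± 0.13, edgeR adjusted p = 0.0261) and than on Collagen I (-0.37 ± 0.13, edgeR adjusted p = 0.0437). On fibronectin it was lower than in control (-0.38 ± 0.13, edgeR adjusted p = 0.0408) and did not pass relative to Collagen I (edgeR adjusted p = 0.0567). Without Collagen I replicate 3 the Geltrex value of Ndufa12 over Collagen I was -0.21 (edgeR adjusted p = 0.222), and without control replicate 3 its values over control were -0.26 on Geltrex and -0.23 on fibronectin, so that none of these 3 calls held. A pseudogene 99.5% identical to Ndufa12 over 402 bases held 4504 reads over the 12 samples, against 17989 for Ndufa12, so reads may have been divided between them. Ndufv3 was called lower on fibronectin relative to control and Collagen I (-0.26 ± 0.10 and -0.33 ± 0.10, edgeR adjusted p = 0.047 and 0.0102), and its Geltrex values were -0.08 and -0.15. Without fibronectin replicate 2 neither fibronectin value passed (-0.20 and -0.27, edgeR adjusted p = 0.18 and 0.0518). With the GC and length offsets described below, the value over control was -0.18 and did not pass (edgeR adjusted p = 0.0897).

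The Q module, which carries electrons to ubiquinone, had all 6 of its members lower on fibronectin, both relative to control and relative to Collagen I. On Geltrex, 4 of the 6 were lower than on Collagen I and 1 was lower than in control. Ndufs7, the subunit with the last iron-sulfur cluster before ubiquinone, was at 26.8, 23.8, and 24.1 CPM in control, 27.9, 25.9, and 41.1 on Collagen I, 15.5, 14.8, and 17.9 on fibronectin, and 22.0, 21.3, and 21.1 on Geltrex. The fibronectin samples were the 3 lowest of the 12 and the Geltrex samples came next, with no overlap between them or with control. Relative to Collagen I, Ndufs7 was 1.96-fold lower on fibronectin (-0.97 ± 0.14, edgeR adjusted p = 6.8e-05), the largest difference of any member in the 6 comparisons, and 1.47-fold lower on Geltrex (-0.55 ± 0.14, edgeR adjusted p = 0.00595). Without Collagen I replicate 3 the Geltrex value was -0.32 and still passed (edgeR adjusted p = 0.0228). Relative to control it was 1.55-fold lower on fibronectin (edgeR adjusted p = 0.00342).

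Ndufs3 was at 79.5, 73.3, and 65.1 CPM in control, 86.2, 81.8, and 103 on Collagen I, 53.8, 42.7, and 59.6 on fibronectin, and 63.8, 65.3, and 64.3 on Geltrex. Its groups stood in the order Collagen I, control, Geltrex, and fibronectin, and of the neighbors only control and Geltrex overlapped. With Collagen I as the base, its log2 fold change was -0.80 ± 0.12 on fibronectin and -0.49 ± 0.12 on Geltrex (edgeR adjusted p = 7e-05 and 0.004).

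Ndufs8, which holds a pair of iron-sulfur clusters, was at 43.1, 38.7, and 40.3 CPM in control, 45.7, 40.4, and 47.6 on Collagen I, 32.0, 31.3, and 33.1 on fibronectin, and 38.1, 39.4, and 38.8 on Geltrex. Geltrex fell within or close to the control range, whereas the 3 fibronectin samples formed a tight group below all others. Ndufs8 was lower on fibronectin relative to control (-0.34 ± 0.08, edgeR adjusted p = 0.0046) and to Collagen I (-0.47 ± 0.08, edgeR adjusted p = 0.000281). With the GC and length offsets described below, these values were -0.095 and -0.12 and did not pass (edgeR adjusted p = 0.314 and 0.185). On Geltrex its values were -0.07 ± 0.08 over control and -0.20 ± 0.08 over Collagen I (edgeR adjusted p = 0.542 and 0.0605). The accessory members Ndufa5 and Ndufa9, the second a short-chain dehydrogenase-like protein that binds NADPH, were both lower on fibronectin and on Geltrex than on Collagen I, at -0.72 ± 0.14 and -0.58 ± 0.14 for Ndufa5 (edgeR adjusted p = 0.000621 and 0.00362) and -0.44 and -0.29 for Ndufa9.

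**Figure D2:**
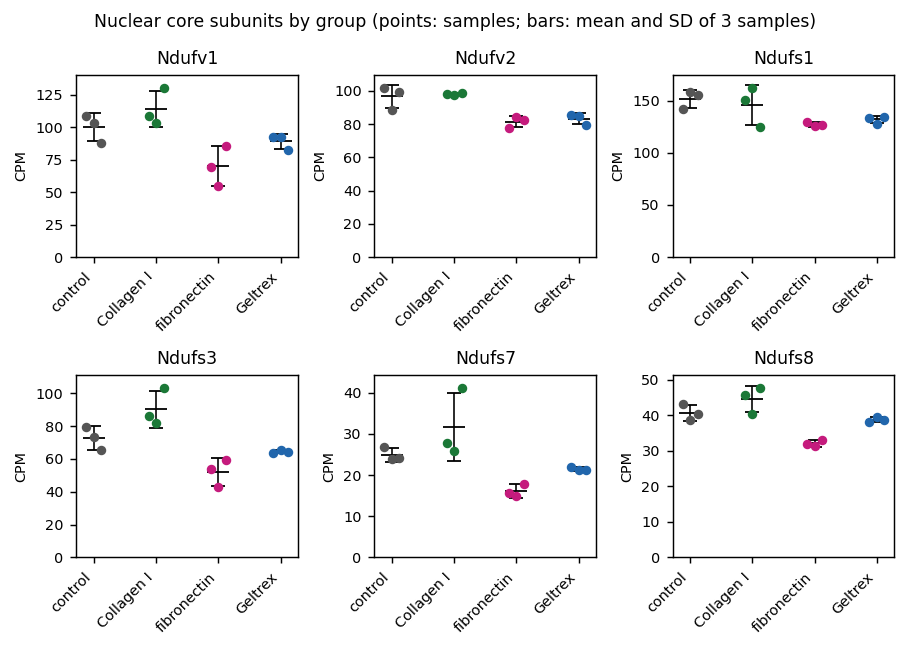
CPM of 6 nuclear core subunits in each sample (points), with the mean and SD of 3 samples per group as bars and each axis starting at 0. Fibronectin lies below control and Collagen I in all 6 except for Ndufs1, where Collagen I replicate 3 at 125 CPM is below the fibronectin samples.

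In the proximal membrane arm, around the mitochondrially encoded ND1, all 4 members were lower than on Collagen I on both fibronectin and Geltrex. Ndufa13, also known as Grim19 and studied as a cell death regulator, was at 52.5, 45.8, and 45.4 CPM in control, 53.0, 50.8, and 81.2 on Collagen I, 30.8, 29.97, and 38.3 on fibronectin, and 41.5, 39.9, and 36.8 on Geltrex. Collagen I replicate 3 was far above its group, and even so all fibronectin and Geltrex samples were below all control and Collagen I samples. Ndufa13 was 1.87-fold lower on fibronectin than on Collagen I (-0.90 ± 0.15, edgeR adjusted p = 0.000223) and 1.56-fold lower on Geltrex (-0.64 ± 0.15, edgeR adjusted p = 0.00328). Without Collagen I replicate 3 the Geltrex value was -0.40 and still passed (edgeR adjusted p = 0.0102). A stretch of 375 bases of its exons is shared with Tssk6, which is read from the opposite strand and had 17 reads in all. Ndufa1, Ndufa3, and Ndufa8 ranged from -0.55 to -0.48 on fibronectin and from -0.52 to -0.29 on Geltrex relative to Collagen I. The Geltrex value of Ndufa8, -0.29, was -0.15 without Collagen I replicate 3 and did not pass (edgeR adjusted p = 0.173). Relative to control, 2 of the 4, Ndufa1 and Ndufa13, were lower on fibronectin and 0 on Geltrex. Without fibronectin replicate 2 neither call held (edgeR adjusted p = 0.147 and 0.0562). With the GC and length offsets described below, Ndufa1 was at -0.12 over control and did not pass (edgeR adjusted p = 0.382).

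Around ND2, all 5 members were lower on fibronectin than on Collagen I and 3 were lower on Geltrex. Ndufs5, a subunit with paired cysteine motifs that is imported into the intermembrane space, was at 46.2, 42.9, and 50.4 CPM in control, 45.7, 43.5, and 59.4 on Collagen I, 28.9, 33.3, and 35.999 on fibronectin, and 33.3, 35.0, and 31.5 on Geltrex. The fibronectin and Geltrex samples shared one range below all control and Collagen I samples. Ndufs5 was lower in all 4 comparisons, with log2 fold changes of -0.51 and -0.60 on fibronectin and -0.48 and -0.57 on Geltrex relative to control and Collagen I (SE 0.12 each, edgeR adjusted p from 0.000772 to 0.00467). Ndufa10 and Ndufc1 were lower than on Collagen I on both coatings, at -0.43 and -0.30 for Ndufa10 and -0.70 and -0.43 for Ndufc1, and Ndufa11 on fibronectin alone, at -0.71. Without Collagen I replicate 3, Ndufa11 was at -0.38 on fibronectin and did not pass (edgeR adjusted p = 0.0511), and Ndufc1 was at -0.25 on Geltrex and did not pass (edgeR adjusted p = 0.17). Ndufc2 departed most from the other members relative to control. It was at 30.9, 27.9, and 22.5 CPM in control, 34.4, 31.1, and 44.6 on Collagen I, 28.0, 19.7, and 31.4 on fibronectin, and 34.0, 34.0, and 29.0 on Geltrex. All groups overlapped except Collagen I with control, and the log2 fold changes over control were -0.04 ± 0.16 on fibronectin and 0.25 ± 0.16 on Geltrex (edgeR adjusted p = 0.879 and 0.262). Ndufc2 was called lower on fibronectin than on Collagen I (-0.47 ± 0.16, edgeR adjusted p = 0.0271), although fibronectin replicate 3 overlapped Collagen I. This call was lost without Collagen I replicate 3 (-0.32) and without fibronectin replicate 2 (-0.30).

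In the distal arm, all 5 members around ND4 and 4 of the 5 around ND5 were lower on fibronectin than on Collagen I, and 3 of each on Geltrex. Ndufb4 and Ndufb5 of the ND4 part were lower in all 4 comparisons with control and Collagen I, from -0.28 to -0.56, and Ndufb10 and Ndufb11 were lower on fibronectin in both. Ndufb9, an LYR-motif subunit of the ND5 part, was lower in all 4 as well, from -0.26 to -0.46. With the GC and length offsets described below, the 4 Ndufb9 values ran from -0.17 to -0.05. None of them passed (edgeR adjusted p from 0.207 to 0.701). With the same offsets Ndufb10 on fibronectin was at -0.09 over control and -0.07 over Collagen I. Neither value passed (edgeR adjusted p = 0.463 and 0.527), nor did Ndufb11 on fibronectin over control (-0.19, edgeR adjusted p = 0.121). Ndufb3 was lower than on Collagen I on both coatings, at -0.69 and -0.53. Ndufb6, Ndufb7, and Ndufb8 were called on fibronectin and not on Geltrex relative to Collagen I, with values of -0.47 ± 0.16, -0.70 ± 0.17, and -0.42 ± 0.14 on fibronectin (edgeR adjusted p = 0.0283, 0.00354, and 0.0209) and of -0.22, -0.33, and -0.15 on Geltrex. For Ndufb7 the fibronectin value was -0.47 without Collagen I replicate 3 and still passed, and the direct difference of Geltrex from fibronectin was 0.37 ± 0.17 (edgeR adjusted p = 0.143). The fibronectin call of Ndufb6 was lost without Collagen I replicate 3 (-0.38), fibronectin replicate 1 (-0.44), or fibronectin replicate 2 (-0.34), and that of Ndufb8 without Collagen I replicate 1 (-0.35), fibronectin replicate 1 (-0.40), or fibronectin replicate 2 (-0.29). Relative to control on Geltrex, Ndufb6 and Ndufb8 were near 0, at 0.02 ± 0.16 and -0.04 ± 0.14. Ndufb6 shares 39.0% of its exon length with Smim27 on the opposite strand, and whether counting used strand was not given in the sources used here. Ndufb11 likewise overlaps Rbm10 (11251 and 10412 reads over the 12 samples) and Ndufb5 overlaps Mrpl47 (11637 and 6492 reads) on opposite strands, so their reads may not have been kept apart. Processed pseudogenes with at least 95% identity over at least 100 bases also exist for Ndufa7, Ndufb2, Ndufb3, Ndufb4, Ndufb11, Ndufc1, Ndufs3, Ndufs5, and Ndufs6 and held at most 113 reads each.

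Ndufb2 was the only ND5 member that was lower on Geltrex and not on fibronectin. It was at 13.6, 13.4, and 13.9 CPM in control, 12.3, 13.7, and 13.5 on Collagen I, 10.7, 12.6, and 13.0 on fibronectin, and 9.44, 11.5, and 9.87 on Geltrex. All Geltrex samples were below all control and Collagen I samples, while fibronectin overlapped Collagen I and Geltrex. Ndufb2 was lower on Geltrex than in control (-0.41 ± 0.11, edgeR adjusted p = 0.00996) and than on Collagen I (-0.36 ± 0.11, edgeR adjusted p = 0.0196). Its values on fibronectin were -0.17 ± 0.11 and -0.12 ± 0.11, and the direct difference between Geltrex and fibronectin did not pass (-0.24 ± 0.11, edgeR adjusted p = 0.147). With the GC and length offsets described below, Ndufb2 was lower on fibronectin too, at -0.33 over control and -0.34 over Collagen I (edgeR adjusted p = 0.0328 and 0.0235). Ndufb2 was then at -0.14 on Geltrex over fibronectin (edgeR adjusted p = 0.422). Its exons overlap those of Braf on the opposite strand, which held 16722 reads over the 12 samples against 3644 for Ndufb2, so its values are uncertain without knowledge of how strand was used.

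Ndufa4, first described as a complex I subunit and now placed with complex IV, was at 71.0, 65.4, and 75.5 CPM in control, 80.8, 71.3, and 85.1 on Collagen I, 53.4, 59.6, and 64.0 on fibronectin, and 64.3, 63.8, and 59.9 on Geltrex. Its fibronectin and Geltrex samples were all below those of control and Collagen I. It was lower on fibronectin than in control and on Collagen I, by -0.26 and -0.42, and lower on Geltrex than on Collagen I by -0.34 (edgeR adjusted p = 0.00862). The fibronectin value of Ndufa4 over control did not pass without fibronectin replicate 2 (edgeR adjusted p = 0.0769). Ndufa4l2, its paralog and a target of the hypoxia factor HIF-1, had 2, 0, and 0 reads in control, 0, 0, and 0 on Collagen I, 0, 7, and 5 on fibronectin, and 2, 0, and 3 on Geltrex. It was at or next to the limit of detection in every library, and no difference could be measured at this depth.

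**Figure D3:**
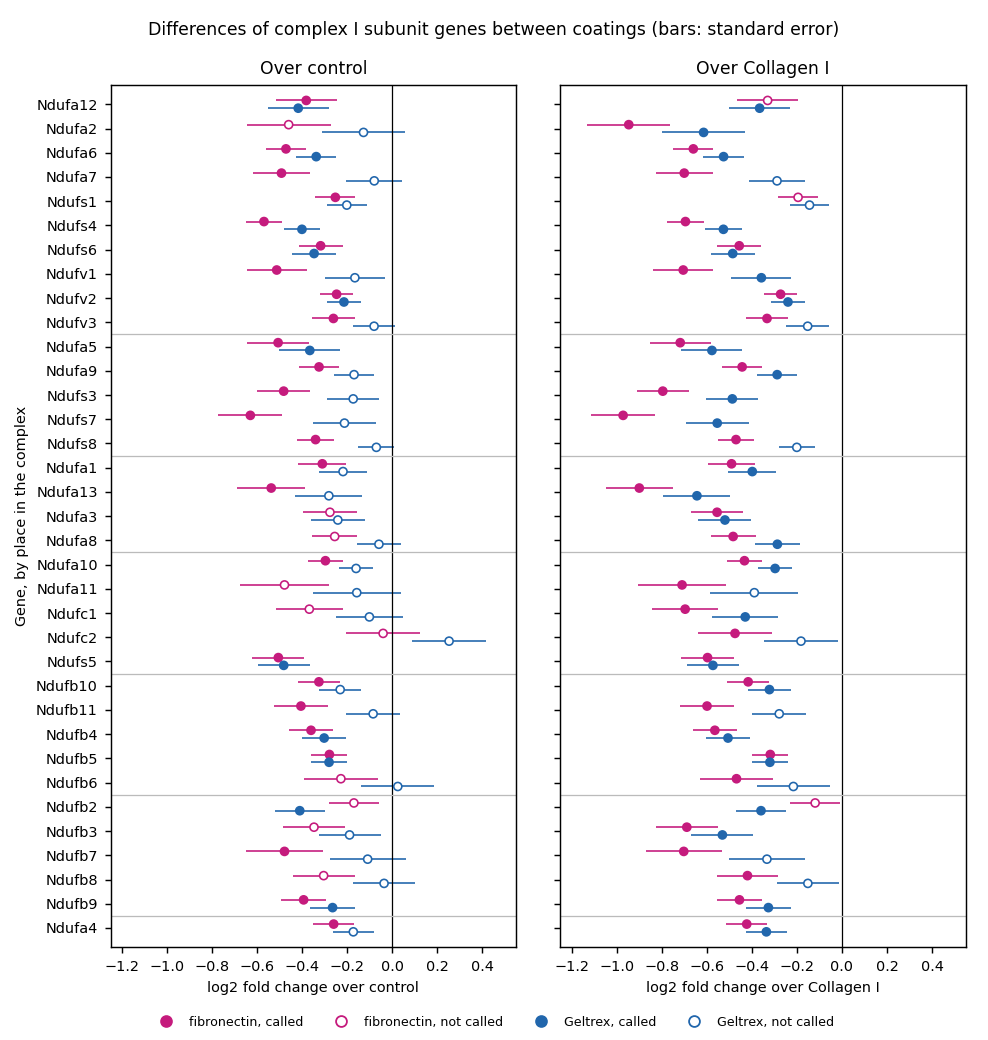
Log2 fold change of 35 tested members on fibronectin and Geltrex over control (left) and over Collagen I (right), with bars for the standard error, filled points for an edgeR adjusted p of at most 0.05, and lines between places in the complex. Nearly all points lie left of 0, and Ndufc2 on Geltrex over control, at 0.25, is farthest to the right.

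Relative to Collagen I, 23 members were called lower on both fibronectin and Geltrex, 10 on fibronectin alone, 2 on Geltrex alone (Ndufa12 and Ndufb2), and 1, Ndufs1, on neither. Relative to control, 10 were called on both, 16 on fibronectin alone, 1 on Geltrex alone, and 9 on neither. With the GC and length offsets described below, Ndufs1 passed on both coatings over Collagen I, and Ndufb2 on fibronectin as well. Being called on one coating alone does not show that the coatings differ, and the direct comparison called 2 members higher on Geltrex than on fibronectin and 0 lower, against 9.06% and 10.3% of all genes. These were Ndufs8 (0.27 ± 0.08, edgeR adjusted p = 0.0284) and Ndufa7 (0.41 ± 0.13, edgeR adjusted p = 0.0323). Ndufa7, an accessory N module subunit, was at 28.9, 27.5, and 35.2 CPM on fibronectin and 40.1, 42.3, and 39.4 on Geltrex, beside 47.2, 39.8, and 41.7 CPM in control and 47.2, 41.5, and 60.3 CPM on Collagen I. Its Geltrex samples lay within or next to the control range and above all fibronectin samples. The median of the members was 0.16 for Geltrex over fibronectin, 32 of the 36 values were positive, and 9 members had all Geltrex samples above all fibronectin samples, as did 21.2% of all genes. Ndufs7 had the highest value, 0.42 ± 0.14, and did not pass (edgeR adjusted p = 0.0528).

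The members differed from each other in level as well, measured as CPM per kilobase of principal transcript. In control, Ndufa4 (116), Ndufb10 (89.4), and Ndufa6 (86.0) were among the highest in CPM per kilobase, and they kept this order on fibronectin (96.7, 71.4, and 62.0). Ndufb2 was the lowest tested member in both groups by this measure, at 3.12 and 2.77 CPM per kilobase, below Ndufc1 at 12.6 and 9.73. Its place rests on the transcript chosen, the longest principal one, which has 4371 bases against 1249 for Ndufc1. By CPM without length, Ndufb2 in control (13.6) was above Ndufa3 (11.2) and Ndufb6 (12.8). Replicate spread of the CPM had a median coefficient of variation of 8.60% in control, 12.4% on Collagen I, 10.7% on fibronectin, and 4.28% on Geltrex over the 36 members.

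The genes with which the members assemble were compared next. Ndufab1, the mitochondrial acyl carrier protein that sits in the complex at a pair of places, was lower on fibronectin than in control (-0.40, edgeR adjusted p = 0.00121), lower on fibronectin than on Collagen I (-0.62, edgeR adjusted p = 1.66e-05), and lower on Geltrex than on Collagen I (-0.40, edgeR adjusted p = 0.000933). The B1 subunit gene, Ndufb1-ps in the table and annotated as a lncRNA, was lower than on Collagen I on both coatings, at -0.29 and -0.26. Of the 18 assembly factors tested, 5 were lower on fibronectin than in control, 7 lower than on Collagen I, and on Geltrex 5 and 6, with 0 higher in these 4 comparisons. Of all genes, 14.7%, 22.1%, 16.6%, and 18.2% were lower in these comparisons, in the same order. The medians of the assembly factors, from -0.24 to -0.14, were closer to 0 than the medians of the subunits in the same comparisons. Tmem186 and Tmem126b, both of the complex that assembles the ND2 part, were lower on Geltrex than on fibronectin (-1.08 and -0.62, edgeR adjusted p = 2.16e-06 and 0.000991), the reverse of the order seen in most subunits. The 7 mitochondrially encoded subunits had medians of -0.23 and -0.26 over control and of -0.48 and -0.54 over Collagen I on fibronectin and Geltrex, and 1 of them, mt-Nd3, passed the test in 1 comparison (Geltrex over Collagen I, -0.84 ± 0.29, edgeR adjusted p = 0.0346).

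Genes of the other respiratory complexes were lower on fibronectin as well. Relative to Collagen I, 3 of 4 complex II genes, 9 of 9 of complex III, 14 of 14 of complex IV, and 16 of 17 of complex V were lower on fibronectin, with medians of -0.44, -0.53, -0.51, and -0.47. On Geltrex, 0, 5, 9, and 4 of them were lower, with medians of -0.13, -0.31, -0.34, and -0.28. Mitochondrial ribosomal protein genes were lower in 48 and 30 of 77 on fibronectin and Geltrex relative to Collagen I. Relative to control, complexes II to V had 1, 7, 8, and 6 genes lower on fibronectin and 0, 3, 4, and 1 lower on Geltrex, and the mitochondrial ribosome 26 and 14. Of all genes, 22.1% and 18.2% were lower on fibronectin and Geltrex relative to Collagen I, and 14.7% and 16.6% relative to control. On Geltrex, complexes II and V were near or below these shares in both comparisons, and the mitochondrial ribosome was near the share over control. These counts describe lists beside one another, and a difference between lists was not tested.

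**Figure D4:**
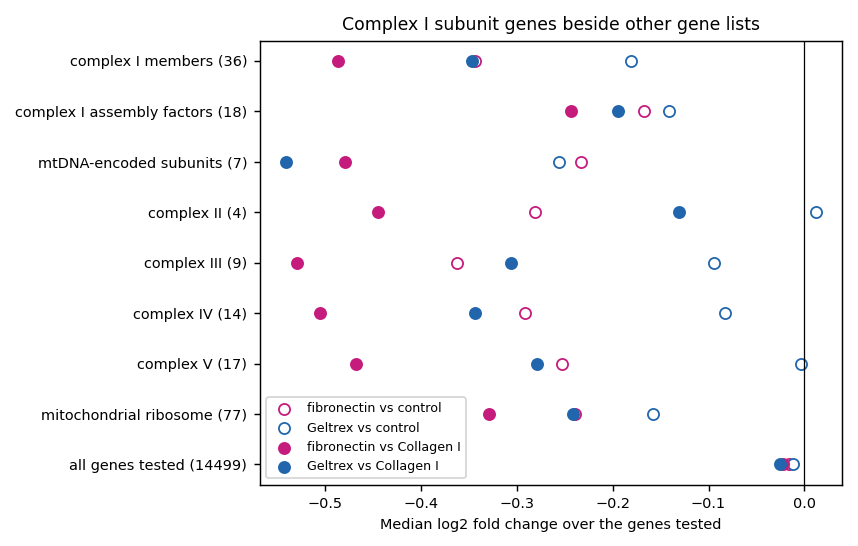
Median log2 fold change of the complex I members and of other gene lists (number of genes tested in brackets) on fibronectin and Geltrex over control (open points) and over Collagen I (filled points). The members lie at -0.49, -0.35, -0.34, and -0.18, and all genes tested lie next to 0.

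Several marker lists also differed between the groups. The 10 myotube genes, summed, were at 8675 to 9265 on Collagen I, 2678 to 2983 on fibronectin, and 3767 to 4175 on Geltrex. They were lower on fibronectin and Geltrex than in control (10 of 10 each, medians -1.99 and -1.48), and 7 of 8 cell cycle genes, such as Mki67, Top2a, and Cdk1, were higher (median 1.64 in both). The summed CPM of the cycling list was 299 to 347 in control, 226 to 238 on Collagen I, 685 to 884 on fibronectin, and 721 to 773 on Geltrex. Summed fibroblast markers (Pdgfra, Col1a1, and Dcn) were at 2011 to 2515 CPM in control, 2116 to 2268 on Collagen I, 1715 to 1935 on fibronectin, and 1404 to 1450 on Geltrex. Unlike the members, this sum was lowest on Geltrex, and its genes did not move together. Relative to Collagen I, 1 of the 3 was called higher and 2 lower on fibronectin (from -0.37 to 0.45). On Geltrex it was also 1 higher and 2 lower (from -0.83 to 0.66). Of 4 genes of myoblasts and reserve cells, Spry1 was lower on fibronectin and higher on Geltrex than in control (-1.005 and 0.53) and than on Collagen I (-0.72 and 0.81), Myod1 was lower on Geltrex than in control (-0.23), and Pax7 and Myf5 passed in none of these 4 comparisons. The part of these differences in the result was not tested.

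Library composition also moved with the members. Their level in a sample, taken as the median over the 36 genes of the log2 deviation from the gene's mean, was 0.15, 0.05, and 0.08 in control, 0.23, 0.14, and 0.46 on Collagen I, -0.31, -0.34, and -0.14 on fibronectin, and -0.07, -0.08, and -0.13 on Geltrex. The highest level was that of Collagen I replicate 3, which also had the largest share of mitochondrial counts, and the steepest trend of all genes toward short and GC-rich ones, at -0.41 log2 per 10-fold length and 0.22 log2 per 10 points of GC. Fibronectin replicates 1 and 2 had the opposite length trend (0.27 and 0.26), and fibronectin replicate 2 the lowest GC trend (-0.28). The members are short, with a median exon length of 1532 bases against 4111 over all genes tested. When GC and length trends were entered as offsets, 25 members were lower on fibronectin and 19 on Geltrex relative to Collagen I, and 18 and 10 relative to control, with medians of -0.33, -0.23, -0.22, and -0.11. Of all genes, 21.8%, 20.5%, 16.3%, and 19.98% were lower in these 4 comparisons with the same offsets. With these offsets the fibronectin calls over Collagen I were lost for Ndufa1, Ndufa3, Ndufa8, Ndufa11, Ndufb6, Ndufb9, Ndufb10, Ndufc2, Ndufs6, and Ndufs8. Calls were gained there for Ndufb2 and Ndufs1. Without Collagen I replicate 3 the member counts in the same 4 comparisons were 31, 20, 32, and 14. Of all genes, 17.5%, 14.9%, 17.8%, and 18.8% were lower in them without that sample. Without fibronectin replicate 2 the 2 fibronectin counts were 30 and 18, beside 16.2% and 10.4% of all genes.

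**Figure D5:**
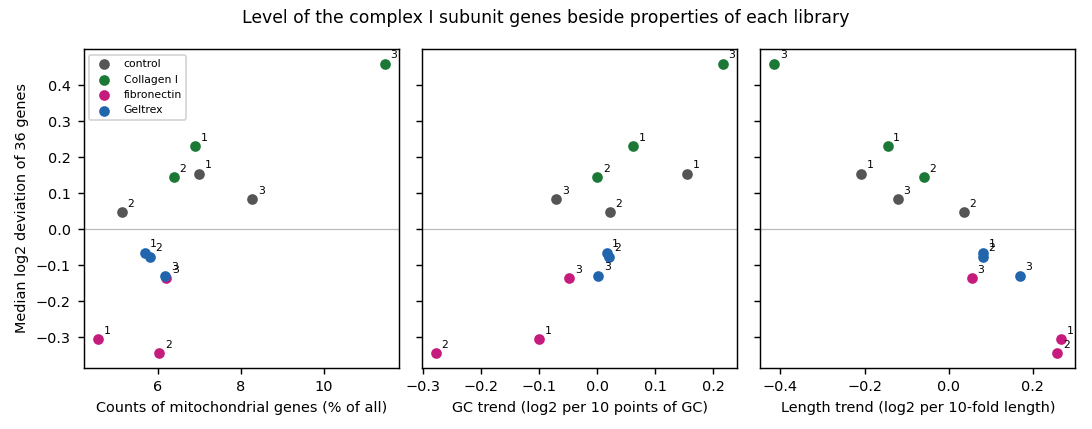
Level of the complex I subunit genes in each sample (median log2 deviation of 36 genes, vertical axis, with replicate numbers beside the points) against the share of mitochondrial counts, the GC trend, and the length trend of the library (horizontal axes). Collagen I replicate 3 is at 0.46 and 11.5% mitochondrial counts, away from the other 11 samples, and fibronectin replicates 1 and 2 lie at the opposite end of the length trend.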

How the data were processed

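Per the labels and the methods, the authors sequenced the RNA as paired ends, trimmed the reads (Trimmomatic), aligned the rest (HISAT2), and assigned alignments to genes (featureCounts). The authors deposited unnormalized counts, with a separate column for every one of the 12 samples and none pooled. The build, annotation, and rules for strand and multiply mapped reads are not given in the sources used here. All 55536 identifiers were found in GENCODE M21 (GRCm38), which gave symbols, biotypes, and exon lengths.

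Genes kept by filterByExpr (minimum count 10, minimum total 15) were tested with edgeR 4.0.16 in R 4.3.3, using TMM and 1 quasi-likelihood fit of the 4 groups with 8 residual degrees of freedom. Adjusted p-values are those of Benjamini and Hochberg over 14499 genes, and a standard error is the log2 fold change divided by the root of F. DESeq2 1.42.0, other scalings and filters, a replicate block, and omission of each sample were tried. Replicates of a group differed beyond counting noise, so each was kept as 1 sample. Libraries held 22520404 to 27351766 counts, and a standard error rests on the spread between samples, not on depth alone. On simulated data for fibronectin and control over 14499 genes, edgeR recovered 24% of genes changed 1.25-fold, 86% at 1.5-fold, and 100% at 2-fold. The simulation changed 50 genes at each fold, none of them at low CPM, and had no trend with GC or length. In the real samples 17.1% of genes were called higher and 14.7% lower, so these rates do not carry over to the members.

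The members and gene lists were chosen with earlier results of these data known. A member of the set enters the counts and is not reported by itself here. Members to name were the other core subunits, the 3 highest and 3 lowest members in the comparisons that involve fibronectin or Geltrex, Ndufa4, and Ndufa4l2, and not every statistic is printed for each. Of the near-identical matches of members in other genes, processed pseudogenes and some overlapping genes are described, and the others are not named. Lists were complex I assembly factors, mitochondrially encoded subunits, complexes II to V, the mitochondrial ribosome, and markers of myotubes, myoblasts and reserve cells, cycling cells, fibroblasts, macrophages, adipocytes, and endothelium.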

Additional observations from a re-analysis of the deposited data

Results flagged for a closer look

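The effect of fibronectin and that of Geltrex on 2 members differed in the direct comparison of these coatings by edgeR's quasi-likelihood test. Ndufs8 was higher on Geltrex than on fibronectin by 0.27 on the log2 scale in 3 of 3 samples, and Ndufa7 by 0.41 in 3 of 3 samples. Over 23 alternative settings, Ndufs8 was called in 15 and Ndufa7 in 17, and both directions held in all 23. With GC and length offsets the value of Ndufs8 was 0.13 (edgeR adjusted p = 0.209) and that of Ndufa7 0.36 (edgeR adjusted p = 0.0135). Without fibronectin replicate 2 neither passed (edgeR adjusted p = 0.0851 and 0.128).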

How the results depend on the processing

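No value of a member count or median changed direction under any of 23 alternative fits, of which those with GC and length offsets, with Geltrex summed into 1 sample, and with Collagen I replicate 3 and fibronectin replicate 2 left out together were chosen after seeing the data. Of the 33 members lower on fibronectin than on Collagen I, 20 were called in every alternative, as were 8 of 26 relative to control, 3 of 25 for Geltrex over Collagen I (Ndufa6, Ndufb4, and Ndufs4), and 0 of 11 for Geltrex over control. Requiring a fold change of at least 2 left 0 calls in the 5 comparisons that had any. Leaving out each sample gave 13 to 32 members for fibronectin over control, 4 to 14 for Geltrex over control, 30 to 34 for fibronectin over Collagen I, 15 to 29 for Geltrex over Collagen I, and 0 to 10 for Geltrex over fibronectin, and the median for fibronectin over Collagen I ran from -0.61 to -0.43. The count for fibronectin over control was 17 without control replicate 1 and 13 without fibronectin replicate 1. That for Geltrex over control was 7 without control replicate 1, 5 without control replicate 3, and 4, 5, and 5 without Geltrex replicates 1, 2, and 3. That for Geltrex over Collagen I was 15 without Geltrex replicate 3. For Geltrex over fibronectin it was 0 without fibronectin replicate 1 or 2 or any Geltrex sample, 10 without fibronectin replicate 3, 7 without Collagen I replicate 3, 4 by DESeq2, 6 with no filter on low counts, and 7 with only the samples compared. Without Collagen I replicate 3, 11.2% of all genes were higher on Geltrex than on fibronectin and 12.1% lower. With no filter, 3 members passed for Collagen I over control. For DESeq2, no filter, only the samples compared, and most left-out samples, the share of all genes called is not given here. Those counts therefore do not show whether the members stood out from all genes. Offsets for GC and length moved the medians to -0.22 for fibronectin over control, -0.33 for fibronectin over Collagen I, and -0.23 for Geltrex over Collagen I. The 3 Geltrex samples differed from each other less than other replicates did (chi-square per degree of freedom 2.18 to 4.54, against 7.73 to 65.1), and summed into 1 sample they left 3 members lower than on Collagen I, 0 lower than in control, 0 different from fibronectin, and 17 lower on fibronectin than in control, with fewer residual degrees of freedom. Of all genes, 5.57% were then lower on Geltrex than on Collagen I and 5.97% lower than in control. The share lower on fibronectin than in control was 10.4%, and between Geltrex and fibronectin 2.28% were higher and 2.21% lower. With the replicate number as a block, 29, 10, 34, 25, and 3 members were called for fibronectin over control, Geltrex over control, fibronectin over Collagen I, Geltrex over Collagen I, and Geltrex over fibronectin. The numbers were not taken to pair the samples, since the correlations of same-numbered samples' deviations ran from -0.15 to 0.23 and not every pair was over 0.1 in any comparison. Causes of these shifts were not tested.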
